A study of Mus musculus with 10 samples.

Results

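The second week of culture of mouse spermatogonial stem cells was examined by comparing 2 RNA-seq libraries of cells cultured for 2 weeks with 2 libraries of cells cultured for 1 week, 4 of the 10 libraries of the series. Genes were included where FPKM (fragments per kilobase of transcript, scaled to the sequencing depth) was 1 or more in at least 2 of these 4 libraries, which left 13281 of 21969 genes. Both groups came from adult testes of DBA/2 mice, an inbred strain. Cells had been enriched with magnetic beads and an antibody to the surface protein CD9, and had then been kept in an Iscove-based medium with human FGF2 at 10 ng/ml, rat GDNF at 15 ng/ml and fetal bovine serum at 1%. No genetic change is named in the labels, and the sources used here do not say whether feeder cells were used. The remaining libraries were the freshly selected cells (week 0), cells cultured for 3 weeks and GS cells, which are established long-term cultures of the same strain, with 2 libraries each. The question of the series is whether dividing stem cells induce PD-L1, through which cells hold back T cells.

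Spermatogonial stem cells sit on the basement membrane of the seminiferous tubule and either renew themselves or give rise to differentiating spermatogonia. GDNF, made by somatic cells of the testis, acts through the receptor pair GFRA1 and RET, and FGF2 through FGF receptors. Together these factors sustain the transcription factors of self-renewal. A selection on CD9 enriches for stem cells and does not give a pure population, because somatic cells of the testis also carry CD9, and in serum somatic cells such as fibroblasts attach and make matrix, proteases and inflammatory mediators. In bulk RNA, fewer cells of a type and less RNA per cell cannot be told apart.

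The 4 libraries held between 13.43 and 16.68 M reads (M for 1000000), as read from the steps of the FPKM values, which puts 26.9 to 33.4 reads behind FPKM 1 for a transcript of 2200 nucleotides. Replicates correlated at r = 0.984 at week 1 and 0.992 at week 2 across genes, which are not independent replicates, and 252 and 90 genes lay at least 2-fold apart between them. Of 13281 genes, 8500 passed the limma test at an adjusted p under 0.05 (64%), 4398 of them higher (33.1% of the genes tested) and 4102 lower (30.9%) at week 2, and the median log2 fold change was 0.080. The falls were larger. Genes that passed and changed at least 2-fold numbered 678 among the rises (5.11%) and 2316 among the falls (17.4%). The balance depended on the scale, since the FPKM values summed to 727209 and 707638 at week 1 and to 580170 and 579697 at week 2. After quantile normalization 5572 genes were higher and 3472 lower (median 0.23), and on a common sum these numbers were 6420 and 3130 (median 0.37). The labels do not say that replicates are from different animals or cultures, and the p-values therefore rest on a spread between libraries that may be technical.

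**Figure D1:**
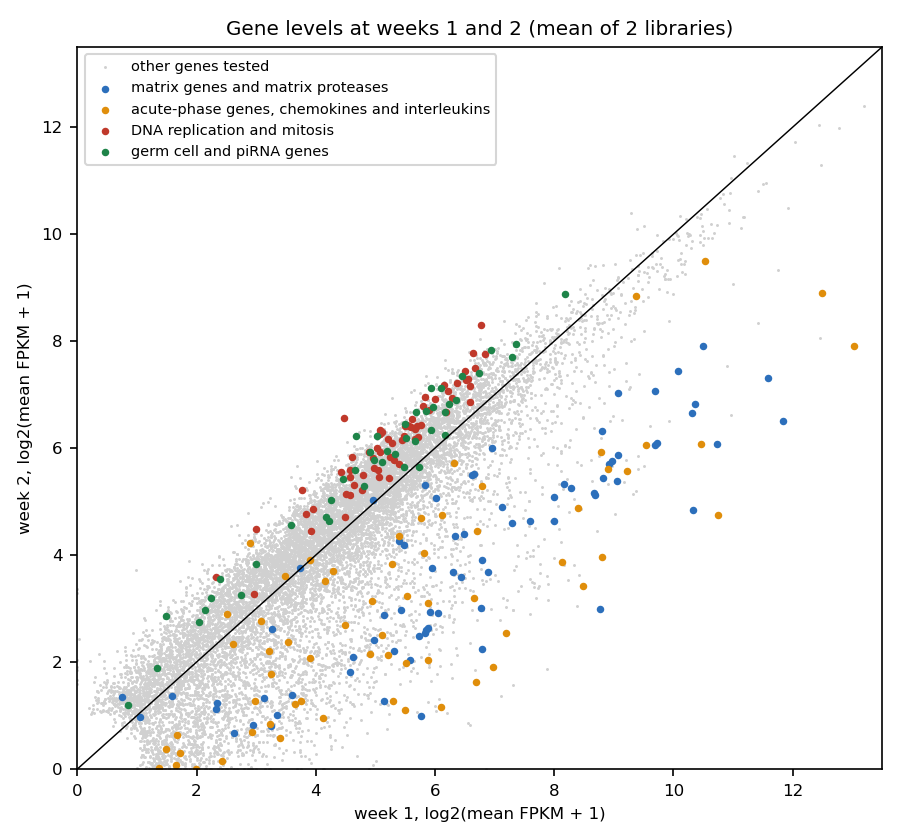
Week 2 (vertical axis) against week 1 (horizontal axis), each as log2 of the mean FPKM of 2 libraries plus 1, with 1 point for each of 13281 genes and a line where the weeks are equal. Most matrix, protease and inflammatory genes lie below the line, many of them far below, and most replication, mitosis, germ cell and piRNA genes lie a short way above it.

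The label of the cells was checked against germ cell markers. Ddx4, an RNA helicase of germ cells, was at 72 and 70.6 FPKM at week 1 and 102 and 101 at week 2, and Dazl, a germ cell RNA-binding protein, at 292 and 289 FPKM at week 1 and 479.7 and 460.1 at week 2. Both were thus present in all 4 libraries and higher in each week 2 library. At week 1, markers of fibroblasts stood far above them. Vim (vimentin), an intermediate filament of mesenchymal cells, was at 3185 and 3003 FPKM at week 1 and 159 and 158 at week 2. The summed level of the 24 fibroblast and matrix genes came to 2.46% and 2.45% of all FPKM at week 1 and to 0.223% and 0.229% at week 2, whereas the 23 germ cell genes tested made up 0.211% and 0.212% and then 0.427% and 0.418%. The week 1 libraries therefore held RNA of both kinds, and every change below was measured in that mixture. How much of each change came from the share of somatic cells was not tested.

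The genes were described through 46 lists of genes with a known role. They hold 938 genes that could be tested, and some genes stand in more than 1 list. A gene could pass the filter through the libraries of 1 week alone, and the filter then largely set its direction. In the following, rose and fell are used of genes at an adjusted p under 0.05, and fold changes are limma estimates on the scale of log2(FPKM + 1), which understates the change of low genes. Against the 33.1% of all genes that rose and the 30.9% that fell, 32 of 34 DNA replication genes and 21 of 23 germ cell genes rose, and all 24 fibroblast and matrix genes fell. Under quantile normalization and on a common sum, 5572 and 6420 of all 13281 genes rose (medians 0.23 and 0.37). List counts on these scales stand against that shift of all genes.

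**Figure D2:**
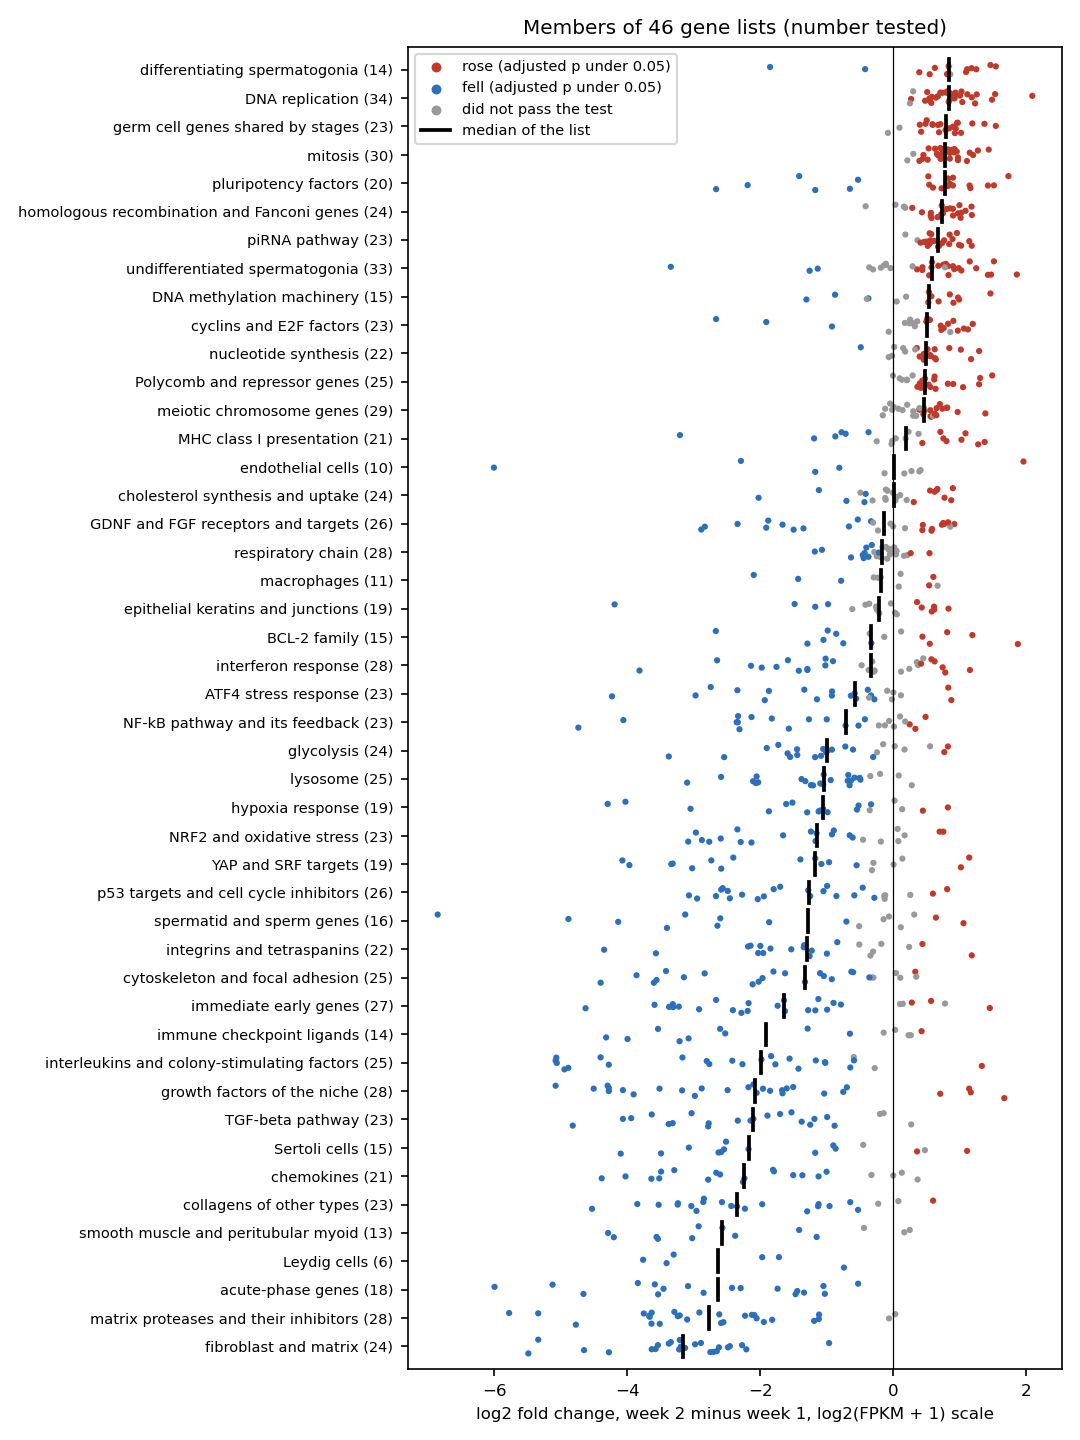
Log2 fold change of week 2 against week 1 (horizontal axis) for the tested members of 46 gene lists (vertical axis, number of genes tested in brackets), ordered by their medians (black bars). Red points rose, blue points fell and grey points did not pass the test. Medians run from -3.16 in the fibroblast and matrix list to 0.85 in that of differentiating spermatogonia, and the falls reach further from 0 than the rises.

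Genes were ranked if they passed the test, reached a mean of FPKM 10 in the higher week and did not overlap between weeks. Among these, the 15 largest falls had log2 fold changes of -5.07 to -6.85, and the 15 largest rises 1.74 to 2.88. The separation of their weeks and an adjusted p under 0.05 were therefore conditions of the choice. The largest fall was that of Prm2, a protamine of sperm chromatin, from a mean of 114.7 FPKM at week 1 to 0 at week 2. Prm2 passed the filter through week 1 alone, which largely set its direction. Several of the other falls were of secreted proteins. Mcpt8, a serine protease best known from basophils, was at 162 and 152 FPKM at week 1 and 1.83 and 2.11 at week 2, and S100a8, a calcium-binding alarmin of myeloid cells, at 92.1 and 93.2 FPKM at week 1 and 1.13 and 0.522 at week 2. Both genes were listed at 0 in the 2 week 0 libraries. Il33, an alarmin cytokine of stromal cells, was at 99.3 and 106 FPKM at week 1 and 1.83 and 2.38 at week 2, and Oaf, a secreted protein, at 347 and 321 FPKM at week 1 and 5.37 and 9.15 at week 2. In these 4 genes the weeks lay far apart, but that they did not overlap was required by the choice. The prolactin-family genes Prl2c2 and Prl2c3 fell as well (-5.74 and -5.17), but they are near-identical copies, so the level of each is uncertain.

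The rises among these genes were smaller. The largest were of Gm49416 (log2 fold change 2.88), Gm6594 (2.13), the replication gene Orc1 (2.10) and Gng13 (2.00). Germ cell and regulatory genes were among the rest. Pramef12, a member of the PRAME family needed in early spermatogenesis, was at 11.9 and 11.7 FPKM at week 1 and 50.0 and 50.1 at week 2 (4.24 times higher; log2 fold change 1.99, SE 0.17, limma adjusted p = 1.7e-05). Erg, an ETS transcription factor, was at 4.67 and 5.24 FPKM at week 1 and 23.1 and 21.3 at week 2 (log2 fold change 1.96, SE 0.10, limma adjusted p = 1.24e-06), and Sox3, a transcription factor of spermatogonia, at 8.26 and 7.04 FPKM at week 1 and 30.2 and 30.6 at week 2 (log2 fold change 1.86, SE 0.11, limma adjusted p = 2.02e-06). In all 3 genes the week 2 libraries lay close together, and their separation from week 1 was required by the choice. Bmf, a BCL-2 family member that promotes cell death, was at 10.3 and 11.7 FPKM at week 1 and 41.4 and 44.6 at week 2, and Dppa3 (also called Stella), a germ cell and oocyte protein, at 2.18 and 3.06 FPKM at week 1 and 10.7 and 11.3 at week 2. Arrdc2, Llgl2 and Igsf9 also rose by 1.81 to 1.89 (limma adjusted p up to 0.000146). Mylpf, a light chain of skeletal myosin, was at 5.87 and 10.9 FPKM at week 1 and 17.8 and 47.6 at week 2, with its week 2 libraries further apart than the weeks. Its rise of 1.75 lost the call without week 1 replicate 1 (1.35) or week 2 replicate 2 (1.06).

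The extracellular matrix fell as a whole. Each of the 24 fibroblast and matrix genes fell, 23 of them at least 2-fold (17.4% of all genes), with a median of -3.16 against 0.080 over all genes. Mgp, an inhibitor of matrix calcification, was at 1323 and 1256 FPKM at week 1 and 27.9 and 27.5 at week 2 (46.5 times lower). Timp1, an inhibitor of metalloproteinases, was at 3799.6 and 3543 FPKM at week 1 and 88.4 and 90.8 at week 2 (41 times lower), and Sparc, a collagen-binding matrix protein, at 1343 and 1290.1 FPKM at week 1 and 108 and 117 at week 2. The replicates of each week lay close together, and the weeks did not overlap. Fn1 (fibronectin) and Col1a1, a chain of type I collagen, fell less, with log2 fold changes of -2.62 and -2.48 (limma adjusted p up to 1.38e-05), and at week 2 Fn1 was still at 129 and 138 FPKM.

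Collagens beyond the fibrillar core and the enzymes that process them moved the same way in 20 of 23 genes, with a median of -2.35. Col15a1, a collagen of basement membrane zones, was at 98.1 and 121 FPKM at week 1 and 3.55 and 3.98 at week 2, and Col4a1, a chain of the basement membrane network itself, at 208 and 176 FPKM at week 1 and 22.8 and 24.7 at week 2. Serpinh1, the collagen chaperone of the endoplasmic reticulum, had a log2 fold change of -2.85 and Pcolce, which enhances procollagen cleavage, of -3.04 (limma adjusted p up to 1.43e-05). Against the rest, Col17a1, a collagen of epithelial hemidesmosomes, rose from 0.678 and 0.674 FPKM to 1.39 and 1.71, a low level at which the call was lost without any 1 of the 4 libraries (0.51 to 0.70). Col17a1 passed the filter through week 2 alone, which largely set its direction.

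Of 28 matrix proteases and their inhibitors 26 fell, all at least 2-fold, and 0 rose (median -2.76). The stromelysins Mmp3 and Mmp10 were among them. Mmp3 was at 1286 and 1266 FPKM at week 1 and 101 and 99.2 at week 2 and Mmp10 at 50.7 and 56.3 FPKM at week 1 and 1.1 and 0.88 at week 2, so Mmp10 fell further (-4.77) than Mmp3 (-3.66), a difference that was not tested. Serpine2, an inhibitor of serine proteases, fell beside the proteases and was at 853 and 808 FPKM at week 1 and 67.7 and 64.1 at week 2. Cathepsins, proteases of the lysosome that can be secreted, kept a higher level. Ctsl was at 1468 and 1429.6 FPKM at week 1 and 240.5 and 239.8 at week 2 and Ctsb at 553 and 524 FPKM at week 1 and 132 and 126 at week 2, and Ctsk, the collagen-degrading cathepsin, had a log2 fold change of -3.10.

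Contractile and adhesion genes showed the same direction. Of 13 smooth muscle and peritubular myoid genes 10 fell and 0 rose (median -2.57). Tagln (transgelin) was at 684 and 639.6 FPKM at week 1 and 42.1 and 29 at week 2, and Tpm2, a tropomyosin, at 238 and 233 FPKM at week 1 and 9.62 and 12.8 at week 2. Acta2, the actin of smooth muscle and myofibroblasts, was 228 and 227 FPKM at week 1 and 18.4 and 18.9 at week 2 (log2 fold change -3.54, SE 0.37, limma adjusted p = 5.09e-05). Of 25 cytoskeleton and focal adhesion genes 19 fell and 1 rose. S100a6, a calcium-binding protein, was at 5878 and 5347 FPKM at week 1 and 274 and 255 at week 2. Annexins fell together, with log2 fold changes of -3.56 for Anxa2, -3.60 for Anxa3 and -3.86 for Anxa1. Actb, the cytoplasmic beta-actin, was at 2515 and 2281 FPKM at week 1 and 2553 and 2614 at week 2 and did not pass the test (log2 fold change 0.11, limma adjusted p = 0.461), whereas it rose under quantile normalization (0.84) and on a common sum (0.42).

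Integrins and tetraspanins fell in 15 of 22 genes and rose in 2. Cd44, a hyaluronan receptor, was at 208 and 216 FPKM at week 1 and 9.58 and 9.31 at week 2, and Itga5, the fibronectin receptor chain, at 164 and 162 FPKM at week 1 and 13.6 and 12.1 at week 2. Itgb1, the chain shared by most matrix receptors, fell from 457 and 455 FPKM to 116 and 111. The laminin receptor chains went against them. Itga6, a surface marker of spermatogonial stem cells, was at 41.9 and 41.7 FPKM at week 1 and 58.5 and 55.8 at week 2 and rose (log2 fold change 0.44, limma adjusted p = 0.00298), and Itga3 was at 6.61 and 8.96 FPKM at week 1 and 17 and 20.7 at week 2 and rose too (log2 fold change 1.18, limma adjusted p = 0.000475). Cd9, on which the cells had been selected, fell from 252 and 239 FPKM to 105 and 99 (log2 fold change -1.26, SE 0.082, limma adjusted p = 3.43e-06). All 4 values of Cd9 stayed above those of Itga6 in the same libraries.

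YAP, a transcriptional coactivator, and SRF, a transcription factor, respond to tension and serum. Of 19 of their targets 13 fell and 2 rose (median -1.17). Cyr61, a matricellular protein, was at 171 and 164 FPKM at week 1 and 9.27 and 8.75 at week 2, and Ctgf, its relative, at 114 and 115 FPKM at week 1 and 10.3 and 10.5 at week 2. Ankrd1, a nuclear ankyrin-repeat protein, fell as well (log2 fold change -3.97, limma adjusted p = 4.39e-07). Srf itself rose, from 31.8 and 38.9 FPKM to 72.3 and 72.7 (log2 fold change 1.02, limma adjusted p = 5.33e-05), as did Ajuba, a LIM protein of the Hippo pathway (log2 fold change 1.15, limma adjusted p = 0.000331). Of 23 TGF-beta pathway genes 20 fell and 0 rose (median -2.10). Inhba, the activin A subunit, was at 249 and 261 FPKM at week 1 and 15.3 and 13.4 at week 2. The inhibitors of bHLH factors encoded by Id genes fell unevenly, with Id2 at 101 and 100.2 FPKM at week 1 and 2.91 and 2.29 at week 2, Id1 at 175 and 179 FPKM at week 1 and 23.2 and 26.7 at week 2 and Id3 at 296 and 282 FPKM at week 1 and 62.9 and 66.5 at week 2. Id4, the member that marks spermatogonial stem cells, was at 12.7 and 12.3 FPKM at week 1 and 11.1 and 11.4 at week 2 and did not pass the test (log2 fold change -0.14, limma adjusted p = 0.336).

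Markers of other testis cells were low or fell. Of 22 Sertoli cell genes 15 could be tested, 11 fell and 2 rose, and their summed share of FPKM went from 0.269% and 0.272% to 0.0974% and 0.102%. Sox9, the transcription factor of Sertoli cells, was at 28.4 and 28.3 FPKM at week 1 and 1.69 and 1.53 at week 2 (log2 fold change -3.49, SE 0.14, limma adjusted p = 3.79e-07), and Clu (clusterin) at 214 and 216 FPKM at week 1 and 11.6 and 11.6 at week 2. The riser Dmrt1 is also a gene of spermatogonia (1.11), and Krt18 rose by 0.36, a call lost without week 1 replicate 2 or either week 2 library (0.25 to 0.43). Amh, the anti-Müllerian hormone, lay below the filter at 0.367 and 0.256 FPKM at week 1 and 0.176 and 0.202 at week 2. Of 14 Leydig cell genes 6 could be tested and all 6 fell (summed share 0.0462% and 0.0477%, then 0.0192% and 0.0188%). Star, which brings cholesterol into mitochondria, was at 55.1 and 62.7 FPKM at week 1 and 3.91 and 2.96 at week 2, and Cyp11a1, which cleaves its side chain, at 17.5 and 17 FPKM at week 1 and 0.807 and 0.891 at week 2. Cyp11a1 thus passed the filter through week 1 alone, which largely set its direction. Insl3, the hormone of Leydig cells, was below the filter at 0.58 and 0.595 FPKM at week 1 and 0.235 and 0 at week 2.

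Macrophage genes moved both ways. Of 18 genes 11 could be tested, 3 fell and 2 rose, and their share was 0.0156% and 0.0151% at week 1 and 0.0167% and 0.0156% at week 2. Their median of -0.19 took the other sign under quantile normalization (0.12), as did that of the epithelial list (-0.21 and 0.12). Lyz2 (lysozyme) was at 61.4 and 58.2 FPKM at week 1 and 65.9 and 61.2 at week 2, with overlapping weeks. Cd14, a receptor for bacterial products, fell from 16.2 and 15.2 FPKM to 2.87 and 2.93 (log2 fold change -2.10, limma adjusted p = 2.76e-06). Ptprc (CD45), which defines blood cells, lay below the filter at 0.503 and 0.296 FPKM at week 1 and 0.45 and 0.231 at week 2. The risers C1qa and C1qc, chains of a complement protein made by macrophages, were at 1.85 and 1.86 and 1.48 and 1.34 FPKM at week 2, and each call was lost without either week 2 library. C1qc passed the filter through week 2 alone, which largely set its direction. Of the fallers, Adgre1 and Fcer1g lost the call without week 1 replicate 1, which left 1 that fell and 1 that rose, and neither share of the list exceeded that of all genes. The endothelial list held 10 testable genes of 16, with 4 lower and 1 higher and a share of 0.0438% and 0.0438% and then 0.0166% and 0.0155%. It split between Thbd (thrombomodulin), 87.9 times lower, and Erg, 4.48 times higher, while Cdh5, the cadherin that defines endothelium, was at 4.61 and 4.3 FPKM at week 1 and 1.91 and 1.02 at week 2. Under quantile normalization and on a common sum 4 rose and 4 fell (medians 0.30 and 0.29), with Egfl7, Flt1 and Plvap among the rises, and the median of 0.021 became -0.40 without week 2 replicate 1. Epithelial genes also split, with 6 of 19 higher (31.6%) and 4 lower (21.1%), neither above the share of all genes (33.1% and 30.9%). The tight junction genes Tjp1 and Ocln and the adhesion gene Epcam, a marker of spermatogonia as well, rose by 0.62 to 0.83 (limma adjusted p up to 0.00834), and Gja1, a gap junction protein of Sertoli and stromal cells, fell from 191 and 212 FPKM to 9.05 and 11.2.

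Inflammatory genes were among the most abundant at week 1 and fell steeply. All 18 acute-phase genes that could be tested fell (median -2.64), and their share of the FPKM sum went from 2.71% and 2.57% to 0.354% and 0.356%. Saa3, a serum amyloid, was at 6029 and 5436 FPKM at week 1 and 473 and 479 at week 2, and Spp1 (osteopontin) at 8589.9 and 8099 FPKM at week 1 and 239 and 237 at week 2. Cp (ceruloplasmin), a copper-carrying ferroxidase, was at 160.0 and 129.6 FPKM at week 1 and 3.72 and 5.98 at week 2. Even so, Saa3 and Spp1 remained above FPKM 200 in both week 2 libraries. The metallothioneins Mt1 and Mt2, close copies that bind zinc and copper, fell least in this list (-0.53 and -1.03), and the call of Mt1 was lost under quantile normalization (-0.01) and on a common sum (-0.22).

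Of 21 chemokines that could be tested 17 fell, all at least 2-fold, and 0 rose (median -2.24). Ccl2, which attracts monocytes, was at 1445 and 1367 FPKM at week 1 and 63.6 and 69.2 at week 2, and Cxcl1, which attracts neutrophils, at 765 and 724 FPKM at week 1 and 60.4 and 70.6 at week 2. Cxcl12, a chemokine that holds stem cells in their niche, was at 112 and 108 FPKM at week 1 and 38.8 and 37.6 at week 2 and fell less (log2 fold change -1.50, limma adjusted p = 0.000224). Of 25 interleukins, colony-stimulating factors and their receptors 22 fell and 1 rose (median -1.98). Il6, an inducer of the acute-phase response, was at 372 and 339 FPKM at week 1 and 9.23 and 10.1 at week 2. Lif, a cytokine of the same family, was at 124 and 127 FPKM at week 1 and 2.26 and 3.29 at week 2, and Csf1, the growth factor of macrophages, at 282 and 277 FPKM at week 1 and 11.7 and 15.6 at week 2. The lone riser was Lifr, the receptor of LIF, at 5.87 and 7.07 FPKM at week 1 and 17 and 18.6 at week 2 (log2 fold change 1.34, SE 0.13, limma adjusted p = 2.77e-05), so ligand and receptor moved in opposite directions. Il1rl1, the receptor of IL-33, fell with its ligand (-4.89 and -5.07).

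NF-kB is the transcription factor through which many of these genes are switched on, and several of its targets encode its own inhibitors. Of 23 genes of the pathway and its feedback 14 fell and 3 rose (median -0.71), against 12 and 6 on a common sum (median -0.42), and 1 rose without any 1 of the 4 libraries. Ptgs2 (cyclooxygenase 2) was at 239 and 235 FPKM at week 1 and 7.06 and 8.92 at week 2, and Vcam1, an adhesion molecule for leukocytes, at 148 and 145 FPKM at week 1 and 8.94 and 6.88 at week 2. Nfkbia, the inhibitor IkB-alpha, fell from 143 and 166 FPKM to 62.2 and 65 (log2 fold change -1.26, limma adjusted p = 3.96e-05). Irf1, a transcription factor of the interferon response, went against the list (77.3 and 89.7 FPKM, then 123 and 112; log2 fold change 0.49, limma adjusted p = 0.00578), and so did Relb and Nfkbib (0.34 and 0.25), whose calls were lost without any 1 of the 4 libraries.

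Promoter sequences were described for these lists, with all tested members counted whether or not they fell. Many of these genes are switched on through NF-kB, so its motif could be frequent here whichever way they moved. RefSeq promoters (build GRCm38.p6) that ran from 250 bases before to 50 bases after a gene's start were searched on both strands for 7 motifs, whose matches may overlap each other. The NF-kB motif GGNNTTTCC was found in 9 of 23 promoters of the NF-kB list (39.1%), 6 of 17 of the chemokines (35.3%) and 7 of 21 of the acute-phase genes (33.3%), against 5.98% of the promoters of all genes tested and 5.82% of all promoters in the table. Some genes have several promoters, and not all genes had an entry. Shown here, to place the motif, are promoters (5′ to 3′, the 250 bases before the start) from genes with the largest falls in these lists that hold the motif, so that they were picked with their values known. The motif is in capitals on whichever strand it was found. They show how near to the start the matches lie, 24 bases in Tnfaip3, 72 in Cxcl3 and 187 in Saa3, counted to the first base of the match.
Tnfaip2, chr12:111442411-111442660, plus strand: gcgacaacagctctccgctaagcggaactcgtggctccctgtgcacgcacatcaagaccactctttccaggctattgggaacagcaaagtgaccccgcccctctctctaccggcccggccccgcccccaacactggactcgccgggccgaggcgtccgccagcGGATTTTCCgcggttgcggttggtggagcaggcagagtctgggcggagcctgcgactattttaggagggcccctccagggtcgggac
Tnfaip3, chr10:19015411-19015660, minus strand: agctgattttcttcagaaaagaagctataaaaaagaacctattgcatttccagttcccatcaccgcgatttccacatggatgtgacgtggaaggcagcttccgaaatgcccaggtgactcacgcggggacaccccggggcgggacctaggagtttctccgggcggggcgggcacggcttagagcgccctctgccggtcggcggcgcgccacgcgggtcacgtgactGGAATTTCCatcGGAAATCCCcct
Cxcl3, chr5:90785851-90786100, plus strand: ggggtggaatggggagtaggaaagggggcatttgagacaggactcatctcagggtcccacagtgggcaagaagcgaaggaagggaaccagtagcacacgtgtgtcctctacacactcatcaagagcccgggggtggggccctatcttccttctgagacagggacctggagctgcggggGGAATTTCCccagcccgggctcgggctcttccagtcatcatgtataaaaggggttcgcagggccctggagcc
Cxcl1, chr5:90890995-90891244, plus strand: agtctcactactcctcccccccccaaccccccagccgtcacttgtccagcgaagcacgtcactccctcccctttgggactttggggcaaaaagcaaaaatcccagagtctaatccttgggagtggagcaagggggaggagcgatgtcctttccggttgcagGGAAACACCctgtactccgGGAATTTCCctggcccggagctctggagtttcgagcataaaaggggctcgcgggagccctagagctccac
Saa3, chr7:46715677-46715926, minus strand: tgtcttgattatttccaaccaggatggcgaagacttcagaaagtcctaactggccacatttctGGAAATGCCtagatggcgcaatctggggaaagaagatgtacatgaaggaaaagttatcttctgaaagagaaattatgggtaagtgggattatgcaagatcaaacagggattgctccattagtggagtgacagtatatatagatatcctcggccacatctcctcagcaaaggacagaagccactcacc
A match is a description of letters and does not show that a factor was bound. Tnfaip2, induced by TNF, was at 61 and 58.3 FPKM at week 1 and 11.5 and 10.6 at week 2, and Tnfaip3 (A20), which shuts NF-kB off, at 28.7 and 28 FPKM at week 1 and 9.32 and 8.5 at week 2. Cxcl3, a relative of Cxcl1, was at 40.2 and 36.2 FPKM at week 1 and 1.75 and 1.09 at week 2.

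Growth factors that somatic cells supply to the stem cell niche fell with the stromal genes, including the gene of a factor given in the medium. Gdnf (GRCm38, ENSMUSG00000022144.4, chromosome 15, 7810846 to 7837575, plus strand) was at 14.3 and 15 FPKM at week 1 and 0.353 and 0.385 at week 2 (39.7 times lower; log2 fold change -3.51, SE 0.12, limma adjusted p = 2.77e-07). Both week 2 values were under FPKM 0.4, so Gdnf passed the filter through week 1 alone, which largely set its direction. The protein in the medium was recombinant and adds no reads. Fgf2 was at 54.9 and 42.1 FPKM at week 1 and 0.962 and 4.49 at week 2 (log2 fold change -3.90, SE 0.44, limma adjusted p = 8.55e-05), with all week 2 values far below those of week 1 but well apart from each other. Of 28 niche growth factors that could be tested 24 fell, 22 of them at least 2-fold, and 4 rose (median -2.08). Kitl, the ligand of the receptor KIT on differentiating spermatogonia, was at 13.4 and 12.3 FPKM at week 1 and 3.8 and 2.09 at week 2 (log2 fold change -1.85, limma adjusted p = 0.000201). Vegfa, the growth factor of blood vessels, was at 203 and 199 FPKM at week 1 and 7.19 and 11.9 at week 2. The EGF receptor ligands Ereg and Hbegf had log2 fold changes of -4.51 and -3.17 (limma adjusted p up to 4.39e-07).

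Among the 4 niche factors that rose, Nrtn (neurturin), a ligand of the GDNF family, was at 3.57 and 3.51 FPKM at week 1 and 10.2 and 8.32 at week 2 (log2 fold change 1.17, limma adjusted p = 0.00267). Wnt3, a ligand of the Wnt pathway, was at 1.83 and 1.4 FPKM at week 1 and 7.92 and 6.75 at week 2 (log2 fold change 1.67, limma adjusted p = 1.49e-05), and Pdgfb, a growth factor for mesenchymal cells, at 28.5 and 26 FPKM at week 1 and 60.2 and 62.8 at week 2 (log2 fold change 1.15, limma adjusted p = 1.42e-05). These 3 genes had no overlap between weeks.

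Receptors and targets of GDNF and FGF moved apart. Of 26 genes 9 rose (34.6%, against 33.1% of all genes) and 11 fell (42.3%, against 30.9%). The median of -0.13 took the other sign under quantile normalization (0.03) and on a common sum (0.17). The GDNF receptor rose. Ret, its kinase subunit, was at 48.3 and 52.5 FPKM at week 1 and 95.5 and 97.2 at week 2 (1.91 times higher; log2 fold change 0.92, SE 0.094, limma adjusted p = 4.48e-05), and Gfra1, its GDNF-binding subunit, at 37.2 and 37 FPKM at week 1 and 51 and 50.4 at week 2 (log2 fold change 0.44, SE 0.12, limma adjusted p = 0.00886). Of the FGF receptors, Fgfr1 fell from 154 and 171 FPKM to 61.4 and 65.1 and Fgfr2 from 16 and 16.3 to 3.03 and 1.84 (limma adjusted p up to 0.00033).

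Several transcription factors that GDNF and FGF2 maintain in spermatogonia rose. Bcl6b, a repressor required for self-renewal in culture, was at 60.8 and 78.9 FPKM at week 1 and 115 and 121 at week 2 (log2 fold change 0.75, SE 0.13, limma adjusted p = 0.000972). Etv5, an ETS factor, was at 33.3 and 34.4 FPKM at week 1 and 45.2 and 57.5 at week 2 and Lhx1, a LIM homeobox factor, at 34.8 and 34.1 FPKM at week 1 and 47.4 and 57.4 at week 2. Their rises of 0.58 and 0.59 lost the call without week 2 replicate 2 (0.41 and 0.45). Nefm, a neurofilament gene, was at 31.4 and 27.1 FPKM at week 1 and 50.9 and 50.5 at week 2 (log2 fold change 0.78, limma adjusted p = 0.000883). Feedback inhibitors of the ERK kinases differed from these factors. Spry2 (Sprouty 2) was at 82.6 and 79.2 FPKM at week 1 and 9.96 and 10.2 at week 2 (8.02 times lower; log2 fold change -2.89, SE 0.13, limma adjusted p = 5.79e-07), and Dusp5, a nuclear ERK phosphatase, fell from 129 and 126 FPKM to 86.4 and 89.5. Dusp6, the cytoplasmic ERK phosphatase, was at 121 and 109 FPKM at week 1 and 97.7 and 98.6 at week 2 and did not pass the test (log2 fold change -0.23, limma adjusted p = 0.097). Its relative Spry4, named after its values were seen, was at 20.7 and 23.3 FPKM at week 1 and 30.2 and 30.5 at week 2 and rose by 0.45, so the 2 Sprouty genes went opposite ways. The D cyclins also split. Ccnd1 fell from 212 and 226 FPKM to 59.3 and 56 (log2 fold change -1.91, limma adjusted p = 5.29e-05), and Ccnd2 was at 167 and 172 FPKM at week 1 and 309 and 308 at week 2. The 2 weeks of Ccnd2 do not overlap, but in the fit of all 10 libraries its SE was 0.62 and it did not pass (log2 fold change 0.86, limma adjusted p = 0.251). It passed in a fit restricted to the 4 libraries of both weeks and without either week 0 library. The estimate cannot change in these fits, which take group means, so only the spread differed.

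Genes of undifferentiated spermatogonia rose in 21 of 33 cases and fell in 3 (median 0.59), and their share of the FPKM sum went from 0.196% and 0.2% to 0.29% and 0.299%. Zbtb16 (PLZF; ENSMUSG00000066687.5, chromosome 9, 48654297 to 48836222, minus strand), a repressor that preserves the stem cell pool, was at 31.5 and 38 FPKM at week 1 and 94.6 and 101 at week 2 (2.82 times higher; log2 fold change 1.48, SE 0.11, limma adjusted p = 8.09e-06). Nanos2, an RNA-binding protein of the most primitive spermatogonia, was at 5.67 and 5.53 FPKM at week 1 and 12.4 and 11.8 at week 2 (log2 fold change 0.99, SE 0.13, limma adjusted p = 0.000176). Pou5f1 (OCT4) rose by 1.52 and Sall4, a zinc finger factor of germ cells, by 0.90 (limma adjusted p up to 0.00303). Lin28a, which blocks let-7 microRNAs, was at 34.5 and 33 FPKM at week 1 and 64.6 and 56.7 at week 2, and Utf1, a chromatin protein of early spermatogonia, at 1.05 and 0.428 FPKM at week 1 and 3.59 and 3.62 at week 2. In all of these genes both week 2 libraries lay above both week 1 libraries. The genes that fell were Thy1, Cd9 and Foxc2. Thy1, a surface protein of stem cells and also of fibroblasts, was at 273 and 235 FPKM at week 1 and 24.7 and 23.4 at week 2. Foxc2, a forkhead factor of quiescent spermatogonia, was at 16.3 and 16 FPKM at week 1 and 6.21 and 7.51 at week 2 (log2 fold change -1.13, limma adjusted p = 0.000128).

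Pluripotency factors moved both ways. Of 24 genes 20 could be tested, 14 rose and 6 fell. Nanog, Tdgf1, Fgf4 and Prdm14 lay below the filter, with Nanog at 0 and 0.105 FPKM at week 1 and 0.0719 and 0.0414 at week 2. Beside Pou5f1, Sall4, Lin28a, Utf1 and Dppa3, Mycn rose from 14.9 and 12.8 FPKM to 25.3 and 25.3 (log2 fold change 0.83, limma adjusted p = 0.0005). Myc was at 26.7 and 31 FPKM at week 1 and 3.91 and 3.5 at week 2 (log2 fold change -2.66, limma adjusted p = 1.28e-06), so the related genes Mycn and Myc moved in opposite directions. Klf4 was at 148 and 160.0 FPKM at week 1 and 32.7 and 33.4 at week 2 and Klf5 at 11.1 and 9.38 FPKM at week 1 and 2.96 and 3.45 at week 2, and both fell (limma adjusted p up to 0.000121).

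Genes of differentiating spermatogonia rose in 11 of 14 cases and fell in 2 (median 0.85). Sohlh1, a bHLH factor at the onset of differentiation, was at 22.7 and 26.6 FPKM at week 1 and 72 and 75.5 at week 2 (2.99 times higher; log2 fold change 1.55, SE 0.10, limma adjusted p = 4.3e-06). Stra8, the retinoic acid target that precedes meiosis, was at 18.3 and 16.2 FPKM at week 1 and 40.5 and 35.6 at week 2 (log2 fold change 1.10, SE 0.13, limma adjusted p = 0.000112), and Kit, the receptor of differentiating spermatogonia, at 9.7 and 8.91 FPKM at week 1 and 13.1 and 15.1 at week 2 (log2 fold change 0.55, SE 0.11, limma adjusted p = 0.00202). Dnmt3b, a de novo DNA methyltransferase, was at 10.2 and 11.5 FPKM at week 1 and 31.4 and 32.1 at week 2, and Dmrt1, which guards the entry to meiosis, at 79.5 and 74.8 FPKM at week 1 and 162 and 175 at week 2. Most genes of both the undifferentiated and the differentiating lists were therefore higher at week 2. The fallers were Kitl, which is the ligand and not a germ cell gene, and Rarg, a retinoic acid receptor (-0.42), whose call was lost under both scalings (-0.30 and -0.14) and without week 1 replicate 1 or either week 2 library.

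No gene fell in the lists of shared germ cell genes, the piRNA pathway and meiotic chromosomes. Of 23 genes shared by stages 21 rose and 0 fell (median 0.79). Dnd1, a partner of NANOS2, was at 29.2 and 34.2 FPKM at week 1 and 71.3 and 75.7 at week 2, and Taf7l, a germ cell subunit of the transcription machinery, at 173 and 154 FPKM at week 1 and 259 and 235 at week 2. Of 23 piRNA pathway genes, which silence transposons, 21 rose and 0 fell (median 0.68). Piwil2 (MILI), a Piwi protein of spermatogonia, was at 58.2 and 62.6 FPKM at week 1 and 140.2 and 137 at week 2 (log2 fold change 1.18, SE 0.072, limma adjusted p = 2.41e-06). Tex15 and Pld6, which act in piRNA-guided DNA methylation and in making piRNAs, rose by 1.02 and 1.15 (limma adjusted p up to 9.48e-05). Of 29 genes of meiotic chromosomes 15 rose and 0 fell (median 0.46), but 23 rose on a common sum, and 10 rose without week 1 replicate 2 or without either week 2 library. Stag3, a meiotic cohesin, was at 90.7 and 101 FPKM at week 1 and 177 and 163 at week 2, while Sycp1, the transverse filament of the synaptonemal complex, was at 72.9 and 51.6 FPKM at week 1 and 65.2 and 54.3 at week 2 and did not pass (log2 fold change -0.044, limma adjusted p = 0.864).

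Several genes of spermatids, cells that do not divide, went down to or near 0. Of 29 genes 16 could be tested, 9 fell and 2 rose. Prm1, Prm2, Smcp and Odf1 were under FPKM 1 in both week 2 libraries and passed the filter through week 1 alone. For such genes a fall was largely set by the filter. Prm1, a protamine of sperm chromatin, was at 17.4 and 15.8 FPKM at week 1, and both libraries of week 2 list it at 0. Smcp, a protein of the sperm mitochondrial sheath, was at 31.7 and 28.4 FPKM at week 1 and 0.0978 and 0 at week 2, and Odf1, of the sperm tail, at 16.8 and 11.7 FPKM at week 1 and 0.214 and 0.658 at week 2. Tnp1, a transition protein, was still at 6.57 and 5.99 FPKM at week 2 and did not pass the test (log2 fold change -0.51, limma adjusted p = 0.0517). The risers Izumo1, a sperm protein of egg fusion, and Zpbp2 stayed low, at 1.57 and 2.02 and 1.25 and 2.35 FPKM at week 2.

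Nearly all genes of DNA replication and mitosis rose. Of 34 DNA replication genes 32 rose, 10 of them at least 2-fold (5.11% of all genes), and 0 fell (median 0.85). Orc1 (ENSMUSG00000028587.18, chromosome 4, 108579423 to 108614833, plus strand), which marks replication origins, was at 25.2 and 17.3 FPKM at week 1 and 82 and 105 at week 2 and so 4.39 times higher (log2 fold change 2.10, SE 0.24, limma adjusted p = 7.88e-05). Cdc6, which loads the replicative helicase with it, was at 6.96 and 7.11 FPKM at week 1 and 21.2 and 22 at week 2 (log2 fold change 1.49, SE 0.10, limma adjusted p = 4.54e-06), and Mcm3, a helicase subunit, at 104 and 99.2 FPKM at week 1 and 189 and 171 at week 2. Pcna, the sliding clamp, was at 95.7 and 94.1 FPKM at week 1 and 117 and 112 at week 2 and rose least of the genes named here (log2 fold change 0.27, limma adjusted p = 0.00864), a call lost without week 2 replicate 1 (0.24). The share of these genes in the FPKM sum went from 0.213% and 0.221% to 0.489% and 0.502%.

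The E2F factors switch on replication genes at the start of S phase. The E2F motif, searched as TTCCCGC or TTGGCGC, was found in 19 of 32 promoters of replication genes (59.4%), against 11.9% of the promoters of all genes tested and 6.81% of all promoters in the table. Of the 34 replication genes 27 had an entry. Promoters of mitosis genes held it in 3 of 26 cases (11.5%), close to the level of all genes tested. The promoters of the replication genes with the largest rises that hold the motif are shown with its letters in capitals, and with them 1 from the mitosis list, Mki67, the gene of the proliferation marker Ki-67.
Cdc6, chr11:98907901-98908150, plus strand: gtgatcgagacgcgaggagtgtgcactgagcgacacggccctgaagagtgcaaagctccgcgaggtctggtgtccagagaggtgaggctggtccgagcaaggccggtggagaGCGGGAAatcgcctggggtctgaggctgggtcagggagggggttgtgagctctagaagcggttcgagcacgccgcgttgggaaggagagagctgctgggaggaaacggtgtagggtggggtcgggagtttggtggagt
Gins3, chr8:95633309-95633558, plus strand: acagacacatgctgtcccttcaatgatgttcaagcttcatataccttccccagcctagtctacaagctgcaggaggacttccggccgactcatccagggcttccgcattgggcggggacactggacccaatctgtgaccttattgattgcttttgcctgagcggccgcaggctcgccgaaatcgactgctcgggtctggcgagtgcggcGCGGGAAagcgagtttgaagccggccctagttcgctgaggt
Mki67, chr7:135716380-135716629, minus strand: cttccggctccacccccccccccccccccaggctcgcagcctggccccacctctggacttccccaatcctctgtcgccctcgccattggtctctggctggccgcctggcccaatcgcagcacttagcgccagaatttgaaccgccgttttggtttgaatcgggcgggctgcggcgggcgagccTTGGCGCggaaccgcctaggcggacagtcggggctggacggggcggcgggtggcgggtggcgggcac
The matches begin 138, 41 and 67 bases before the start. Gins3, a subunit of the helicase at the replication fork, was at 4.08 and 3.96 FPKM at week 1 and 10.8 and 11.3 at week 2, and Mki67 at 29.7 and 33.7 FPKM at week 1 and 63.8 and 62.7 at week 2, both picked with their values known.

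**Figure D3:**
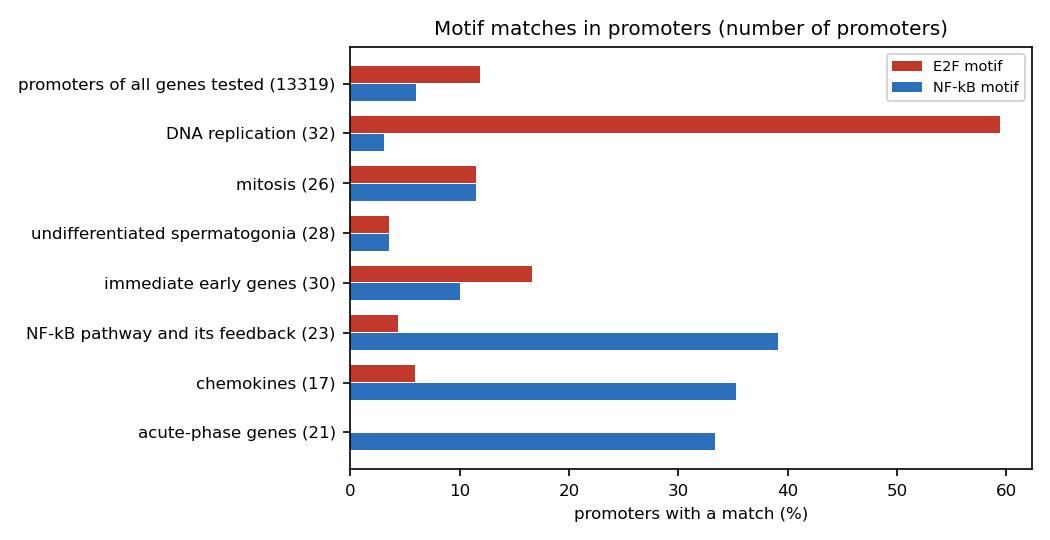
Share of promoters with a match to the E2F motif (red) or the NF-kB motif (blue), in percent (horizontal axis), for all genes tested and for 7 gene lists (vertical axis, number of promoters in brackets). E2F matches are most frequent in replication genes (59.4%), and NF-kB matches in the NF-kB, chemokine and acute-phase lists (33.3% to 39.1%). No test was made.

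Of 30 mitosis genes 28 rose and 0 fell (median 0.79). Plk1, a kinase of mitotic entry, was at 12.8 and 12.6 FPKM at week 1 and 35.1 and 37.4 at week 2 (log2 fold change 1.44, SE 0.10, limma adjusted p = 5.35e-06). Cdk1, the kinase that drives mitosis, was at 55.6 and 61.2 FPKM at week 1 and 97.7 and 111 at week 2 (log2 fold change 0.83, SE 0.099, limma adjusted p = 0.000112), and Cenpa, the histone of centromeres, at 92.2 and 104 FPKM at week 1 and 221 and 217 at week 2. Among 22 genes of nucleotide synthesis 15 rose and 1 fell. Cad, which starts pyrimidine synthesis, was at 72 and 57.1 FPKM at week 1 and 153 and 165 at week 2, and Tk1, a thymidine kinase of S phase, at 22.8 and 27.8 FPKM at week 1 and 58.9 and 57.4 at week 2. Of 23 cyclins, E2F factors and partners 12 rose and 3 fell. Foxm1, a transcription factor of mitotic genes, was at 31.4 and 34.8 FPKM at week 1 and 80.6 and 74 at week 2 (log2 fold change 1.20, SE 0.084, limma adjusted p = 5.27e-06), and E2f7, a repressor of the E2F family, at 3.65 and 5.87 FPKM at week 1 and 11.9 and 10.8 at week 2. The genes that fell were Myc, Ccnd1 and Mybl1, the last from 3.84 and 4.6 FPKM to 1.69 and 1.81. Cdk4, the partner of D cyclins, was at 484 and 435 FPKM at week 1 and 462 and 416 at week 2, with overlapping weeks.

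Repair and chromatin genes mostly rose. Of 24 genes of homologous recombination and the Fanconi pathway 20 rose and 0 fell (median 0.74). Brca1 was at 13.2 and 15.8 FPKM at week 1 and 35.1 and 33.1 at week 2, and Exo1, a nuclease that resects DNA ends, at 49.9 and 51.3 FPKM at week 1 and 120.1 and 112 at week 2. Of 15 genes of the DNA methylation machinery 9 rose and 3 fell. The maintenance pair rose, Dnmt1 from 68.2 and 69.1 FPKM to 134 and 138 and Uhrf1, which guides it, from 139 and 134 to 244 and 272 (limma adjusted p up to 1.2e-05). Dnmt3a and Dnmt3b rose as well (0.99 and 1.47), whereas Dnmt3l, their cofactor in germ cells, was at 4.49 and 6.4 FPKM at week 1 and 1.99 and 3.05 at week 2 and fell (log2 fold change -0.87, SE 0.21, limma adjusted p = 0.00581). That call was lost under quantile normalization (-0.51). Tet2, which oxidises methylcytosine, fell from 3.3 and 3.59 FPKM to 1.22 and 0.459. Of 25 Polycomb and other repressor genes 18 rose and 0 fell (median 0.48), and 11 rose without week 2 replicate 1. L3mbtl2, of a non-canonical Polycomb complex, was at 17.6 and 15.6 FPKM at week 1 and 46 and 51 at week 2, and Kdm2b, which brings Polycomb to CpG islands, at 30.0 and 39 FPKM at week 1 and 79.4 and 93.8 at week 2. Cbx2, a subunit of the canonical complex, was at 10.4 and 12.1 FPKM at week 1 and 30.0 and 28 at week 2.

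Targets of p53 and inhibitors of the cell cycle fell as division genes rose. Of 26 genes 20 fell, 15 at least 2-fold, and 2 rose (median -1.26). Cdkn1a (p21), an inhibitor of cyclin-dependent kinases, was at 267 and 259 FPKM at week 1 and 63.5 and 63.2 at week 2 (4.15 times lower; log2 fold change -2.04, SE 0.12, limma adjusted p = 2.47e-06). Mdm2, the ubiquitin ligase of p53 and itself a target, was at 255 and 271 FPKM at week 1 and 111 and 109.8 at week 2, and Ccng1 (cyclin G1) at 189 and 173 FPKM at week 1 and 27.4 and 28.1 at week 2. Cdkn2a, the locus of p16 and ARF, was at 130.1 and 117 FPKM at week 1 and 65 and 71 at week 2 (log2 fold change -0.85, limma adjusted p = 0.000104). The risers were Bbc3 (PUMA), a target that promotes cell death, at 12.6 and 11.4 FPKM at week 1 and 21.9 and 21.9 at week 2 (log2 fold change 0.81, limma adjusted p = 0.00165), and Cdkn1c (p57), at 11.8 and 11.7 FPKM at week 1 and 18.4 and 18.3 at week 2 (log2 fold change 0.60, limma adjusted p = 0.00748).

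The BCL-2 family, which sets the threshold of cell death, moved both ways. Of 15 genes that could be tested 5 rose (33.3%, against 33.1% of all genes) and 7 fell (46.7%, against 30.9%). Among the members that promote death, Bmf, Bbc3 and Bik rose (1.88, 0.81 and 1.19), while Pmaip1 (NOXA) fell from 50.5 and 46.9 FPKM to 23.4 and 22.7 and Bak1 from 20.2 and 15.1 to 1.37 and 2.57. Mcl1, a survival protein, was at 117 and 126 FPKM at week 1 and 62.2 and 59.8 at week 2 (log2 fold change -0.98, limma adjusted p = 1.25e-05). Bax, an effector of death, was at 349 and 388 FPKM at week 1 and 337 and 334 at week 2 and did not pass the test (log2 fold change -0.13, limma adjusted p = 0.532).

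Immediate early genes respond within minutes to growth factors and to stress. Of 27 genes 21 fell and 3 rose (median -1.64). Nr4a2, an orphan nuclear receptor, was at 46.7 and 55.2 FPKM at week 1 and 1.13 and 1.07 at week 2, and Jun, a subunit of AP-1, at 97.5 and 99.4 FPKM at week 1 and 8.92 and 9.13 at week 2. Fos, its partner, was at 257 and 233 FPKM at week 1 and 78.2 and 78.9 at week 2 (log2 fold change -1.63, limma adjusted p = 7.45e-06) and so fell less than Jun (-3.31). Within the EGR factors the picture was different. Egr3 was at 45.5 and 49.6 FPKM at week 1 and 139 and 125 at week 2 and rose (log2 fold change 1.46, SE 0.098, limma adjusted p = 4.1e-06). Egr1 was at 207 and 207 FPKM at week 1 and 223 and 222 at week 2 and did not pass in the fit as deposited (log2 fold change 0.11, limma adjusted p = 0.303), but rose under quantile normalization (0.40) and on a common sum (0.41). Klf10, a TGF-beta inducible factor, rose from 46.6 and 49 FPKM to 72.2 and 71 (log2 fold change 0.57, limma adjusted p = 0.000879), and Jund by 0.28, a call lost without week 1 replicate 1 or week 2 replicate 2. The CArG box, the motif of SRF, was found in 5 of 30 promoters of these genes (16.7%), against 1.32% of the promoters of all genes tested and 1.63% of the table. The list of undifferentiated spermatogonia, most of which rose, held it at a similar share (4 of 28; 14.3%). Zfp36, which destabilises cytokine mRNAs, has it 58 bases before the start, in capitals here, and was picked with its value known (149 and 149.7 FPKM at week 1 and 67.6 and 68.5 at week 2).
Zfp36, chr7:28379229-28379478, minus strand: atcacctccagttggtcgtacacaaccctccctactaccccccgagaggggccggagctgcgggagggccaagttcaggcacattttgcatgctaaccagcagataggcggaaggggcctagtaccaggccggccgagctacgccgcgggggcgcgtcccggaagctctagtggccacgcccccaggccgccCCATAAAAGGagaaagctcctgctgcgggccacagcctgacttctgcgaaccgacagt

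Metabolic genes divided by pathway. Of 24 glycolysis genes 17 fell and 2 rose (median -0.995). Pgk1, a glycolytic kinase, was at 123 and 119 FPKM at week 1 and 11.7 and 9.9 at week 2 (11.2 times lower; log2 fold change -3.37, SE 0.18, limma adjusted p = 1.14e-06), and Tpi1, an isomerase, at 124 and 137 FPKM at week 1 and 35.1 and 33.2 at week 2. Eno1 and Aldoa fell, with log2 fold changes of -1.05 and -1.01 (limma adjusted p up to 9.05e-06). Gpi1, the enzyme next to hexokinase, was at 347 and 369 FPKM at week 1 and 400.5 and 407 at week 2 and did not pass (log2 fold change 0.17, limma adjusted p = 0.0639), but rose under both scalings (0.61 and 0.48). Pdk1, which closes the entry to the citric acid cycle, rose from 55.2 and 64.4 FPKM to 106 and 107 (log2 fold change 0.83, limma adjusted p = 8.34e-05), and Slc2a3, a glucose carrier, by 0.77, a call lost without week 2 replicate 2 (0.55). The hypoxia list fell in 14 of 19 genes and rose in 2, with Bhlhe40, a transcriptional repressor, at 171 and 176 FPKM at week 1 and 10.2 and 9.31 at week 2.

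Respiratory chain genes had a median near 0. Of 28 genes 10 fell and 2 rose (median -0.16), but quantile normalization gave 11 rises and 5 falls and a common sum 11 and 3, so their direction depended on the scale. The medians on these scales (0.13 and 0.14) were below those of all genes (0.23 and 0.37). Ndufa4 was at 468 and 432 FPKM at week 1 and 221 and 206 at week 2 (log2 fold change -1.07, limma adjusted p = 1.87e-05) and Ndufv1, a subunit of complex I, at 155 and 138 FPKM at week 1 and 218 and 211 at week 2 (log2 fold change 0.55, limma adjusted p = 0.00208). Atp5b, of the ATP synthase, was at 1104 and 1017 FPKM at week 1 and 984 and 1097 at week 2, with overlapping weeks. Cholesterol synthesis and uptake genes rose in 8 of 24 cases and fell in 5 (median 0.018, of either sign without 1 library), shares near or below those of all genes. On a common sum 12 rose and 3 fell (median 0.32), where all genes had a median of 0.37. Srebf2, their main transcription factor, rose from 120.0 and 112 FPKM to 207 and 228 (log2 fold change 0.90, limma adjusted p = 1.59e-05), and Ebp, a sterol isomerase, fell from 17.1 and 17 to 3.04 and 3.86 (log2 fold change -2.02, limma adjusted p = 2.05e-05).

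Stress and degradation genes mostly fell. Of 23 genes of the ATF4 response to amino acid shortage and misfolded protein 16 fell and 2 rose (median -0.58), and on a common sum 10 fell. Atf4 itself was at 200.5 and 193 FPKM at week 1 and 101 and 106 at week 2 (log2 fold change -0.92, SE 0.079, limma adjusted p = 1.67e-05). Nupr1, a stress-induced chromatin protein, was at 577 and 455 FPKM at week 1 and 24.4 and 28.4 at week 2, and Chac1, which degrades glutathione, at 14.8 and 14.1 FPKM at week 1 and 1.17 and 1.45 at week 2. The risers were Slc7a5, a carrier of large amino acids, from 86.8 and 93.7 FPKM to 161 and 161, and Shmt2, a mitochondrial enzyme of one-carbon metabolism, from 83.8 and 98 to 160.4 and 175 (limma adjusted p up to 0.000227). Of 23 genes of NRF2 and oxidative stress 16 fell and 2 rose. Hmox1, which degrades heme, was at 448 and 427 FPKM at week 1 and 71.9 and 71.5 at week 2, and Nqo1, a quinone reductase, at 42.6 and 36.6 FPKM at week 1 and 3.72 and 4.67 at week 2. Gsr, which regenerates glutathione, rose from 82.3 and 102 FPKM to 165 and 147 (log2 fold change 0.76, limma adjusted p = 0.000502). Of 25 lysosome genes 21 fell and 0 rose (median -1.04), with Ctsd at 534 and 506 FPKM at week 1 and 255 and 248 at week 2.

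The PD-L1 gene rose, and most of the checkpoint ligands tested beside it fell. Cd274 (GRCm38, ENSMUSG00000016496.7, chromosome 19, 29367455 to 29388095, plus strand) was at 12.3 and 12.5 FPKM at week 1 and 17.8 and 16.5 at week 2 (1.38 times higher; log2 fold change 0.43, SE 0.10, limma adjusted p = 0.00558). The call held under both scalings, without each single library and under the other alternatives run for it. Of 21 immune checkpoint ligands 14 could be tested, and Cd274 was the 1 that rose against 9 that fell (median -1.91). Under quantile normalization and on a common sum 2 rose and 9 fell. Pvr, the ligand of TIGIT, was at 55 and 62.3 FPKM at week 1 and 3.13 and 2.38 at week 2, and Cd200, which restrains myeloid cells, at 86.1 and 86.8 FPKM at week 1 and 5.79 and 14.8 at week 2. Cd47, the signal against being engulfed, was at 81.6 and 88 FPKM at week 1 and 13.9 and 12.4 at week 2 (log2 fold change -2.60, limma adjusted p = 9.44e-07). Nt5e (CD73), which makes adenosine, and Lgals3 (galectin 3) fell, with log2 fold changes of -3.54 and -4.32 (limma adjusted p up to 2.02e-06). Cd276 (B7-H3) was at 29.2 and 27.4 FPKM at week 1 and 31.3 and 37.5 at week 2, and did not pass (log2 fold change 0.27, limma adjusted p = 0.112) except on a common sum, where it rose (0.57). Pdcd1lg2, which encodes PD-L2, lay below the filter at 0.581 and 0.217 FPKM at week 1 and 0.581 and 0.412 at week 2.

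MHC class I molecules show peptides to T cells and consist of a heavy chain, the light chain B2M and a peptide cut by the immunoproteasome and loaded by tapasin. B2m (GRCm38, ENSMUSG00000060802.8, chromosome 2, 122147686 to 122153083, plus strand) was at 807 and 759 FPKM at week 1 and 86.1 and 81.7 at week 2 (9.33 times lower; log2 fold change -3.21, SE 0.11, limma adjusted p = 2.77e-07). Other genes of the pathway moved both ways. Tapbp (tapasin) was at 108 and 106 FPKM at week 1 and 248 and 275 at week 2 (2.45 times higher; log2 fold change 1.28, SE 0.077, limma adjusted p = 2.28e-06). Psmb9, a subunit of the immunoproteasome, was at 13.2 and 17.1 FPKM at week 1 and 32.2 and 34.1 at week 2 (log2 fold change 1.09, limma adjusted p = 0.000524), and Psme2, of its activator, at 738 and 602 FPKM at week 1 and 1067 and 1118 at week 2 (log2 fold change 0.71, limma adjusted p = 0.00256). In all, 8 of 21 class I genes rose and 6 fell (median 0.19), shares near those of all genes. Quantile normalization gave 10 and 5 (median 0.46), and a common sum 12 and 5 (median 0.48). Over all genes the medians on these scales were 0.23 and 0.37. The chaperones Calr and Pdia3 fell, with log2 fold changes of -0.71 and -0.87. Values of the H2 heavy chain genes are uncertain because of near-identical copies, H2-Q7 at 0.842 and 1.27 FPKM at week 1 and 4.19 and 4.44 at week 2 among them.

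**Figure D4:**
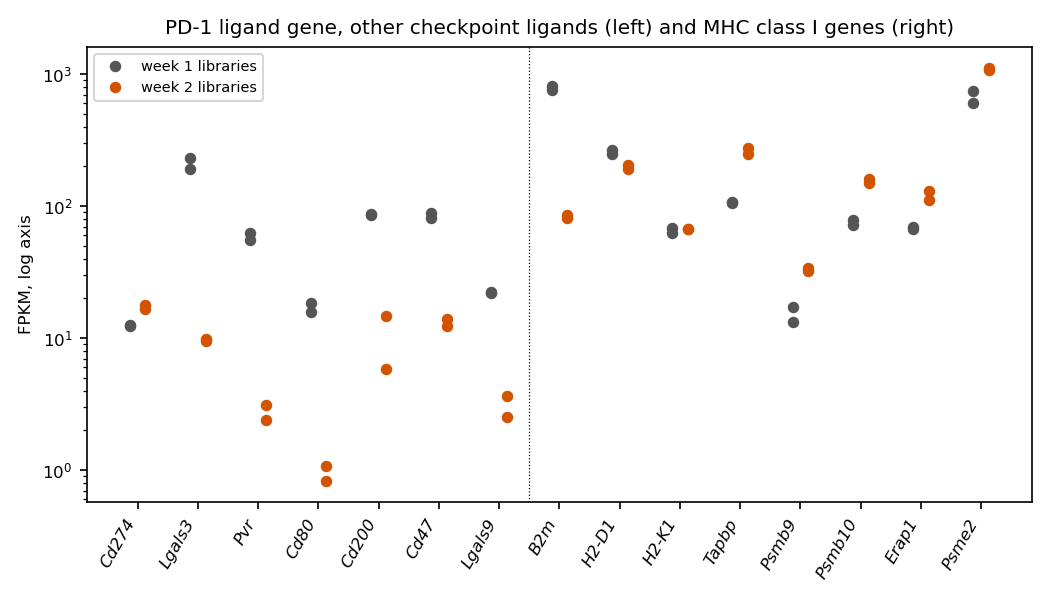
FPKM on a log axis (vertical) of the PD-L1 gene Cd274 and 6 other checkpoint ligands (Lgals3, Pvr, Cd80, Cd200, Cd47 and Lgals9, the third and last of these picked with their values known; left of the dotted line) and of 8 MHC class I genes (right), with 1 point per library, grey for week 1 and orange for week 2. Of these 7 genes, Cd274 alone has its week 2 points above those of week 1, and B2m falls while Tapbp, Psmb9 and Psme2 rise.

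Interferon response genes also moved both ways, with 6 of 28 higher (21.4%) and 12 lower (42.9%), against 33.1% and 30.9% of all genes (median -0.34). The membrane proteins Ifitm3 and Ifitm2, which block viral entry, fell, with log2 fold changes of -3.82 and -2.65 (limma adjusted p up to 1.3e-06), Ifitm3 from 599.7 and 557 FPKM to 41.1 and 39.1. Genes of guanylate-binding proteins, which act against microbes within cells, rose. Gbp3 was at 19.5 and 19.4 FPKM at week 1 and 45.6 and 43.7 at week 2 (limma adjusted p = 0.000482), and Gbp2 at 28.9 and 25.4 FPKM at week 1 and 47.9 and 44.4 at week 2 (log2 fold change 0.75, limma adjusted p = 0.00173). Parp14 and Samhd1, a nucleotide hydrolase, rose by 0.79 and 0.63 (limma adjusted p up to 0.00109).

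To ask where the second week differed from the third, the step of each gene from week 2 to week 3 was set against its step from week 1 to week 2 in 1 contrast. Both steps share the week 2 libraries, so an error in these moves them in opposite directions. The steps differed in 5305 of 13281 genes (39.9%), but in 3090 without week 2 replicate 1 and in 3015 without week 2 replicate 2. The step of the third week was the higher in 2949 of the 5305 and the lower in 2356, a split that turned under quantile normalization (2412 and 3171) and on a common sum (2186 and 4299). Replication genes differed in 30 of 34 cases, with medians of 0.85 in the second week and -0.21 in the third, and mitosis genes in 24 of 30 (0.79 and -0.27). Fibroblast and matrix genes differed in 22 of 24 cases, with medians of -3.16 and -0.74. Genes of the piRNA pathway differed in 4 of 23 (0.68 and 0.59), and genes of undifferentiated spermatogonia in 26 of 33 (0.59 and -0.20).

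Several genes had their highest level of the series at week 2. Bcl6b went from 115 and 121 FPKM at week 2 to 24.9 and 22.6 a week later, was 65.9 and 67.4 in GS cells and 2.2 and 2.64 before culture, and its steps differed by -3.02 (limma adjusted p = 4.91e-05). Lhx1 was at 12.7 and 13.1 FPKM at week 3 against 47.4 and 57.4 at week 2 (step difference -2.52, limma adjusted p = 0.000164). Egr3 was at 26.2 and 30.4 FPKM at week 3 and 106 and 111 in GS cells, against 139 and 125 at week 2 (step difference -3.64, limma adjusted p = 1.36e-05). Other genes were lower at week 2 than in the weeks before and after. Chac1 was at 14.8 and 14.1 FPKM at week 1, fell to 1.17 and 1.45 and stood at 26.8 and 32.4 a week later (step difference 6.47, limma adjusted p = 1.36e-05), and ATF4 response genes had medians of -0.58 and then 1.00, with steps that differed in 21 of 23. Id1 went from 175 and 179 FPKM to 23.2 and 26.7 and then 148 and 138 (step difference 5.25, limma adjusted p = 1.36e-05). Other genes that rose in the second week were higher again in the third. Sohlh1 was at 175 and 181 FPKM at week 3 and Stra8 at 102 and 105, and Sox3 at 82.4 and 71.7. Cd274 was at 18 and 17.9 FPKM at week 3, and its 2 steps did not pass the test of a difference (-0.36, limma adjusted p = 0.137).

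**Figure D5:**
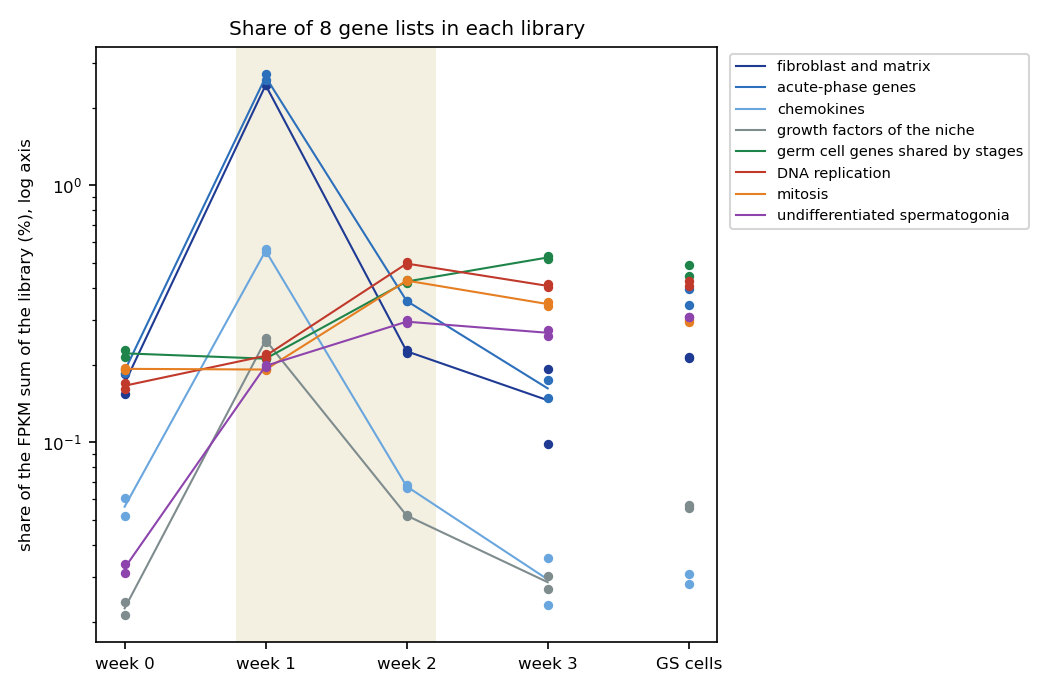
Share of the FPKM sum (vertical axis, percent, log scale) held by 8 gene lists in each of the 10 libraries (points), with lines through the means of weeks 0 to 3 and the second week shaded. Fibroblast, acute-phase, chemokine and niche factor lists drop between weeks 1 and 2, and the replication, mitosis and germ cell lists climb over the same interval.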

How the data were processed

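RNA was sequenced from CD9-selected testis cells before culture, after 1, 2 and 3 weeks, and from GS cells, with 2 libraries each. Libraries were made with the TruSeq Stranded mRNA kit, per the labels' protocols. The authors deposited FPKM values per gene. Per the submitters' processing notes, the aligners HISAT2 2.1.0 and Bowtie2 2.3.4.1, the quantifiers Cuffdiff and Cufflinks 2.2.1 and the read tools cutadapt 1.16 and bcl2fastq 2.17.1.14 were among the software, and the build was mm10. Which annotation and which normalization were used is not given in the sources. Of 21969 gene IDs 21951 were found in GENCODE M21, 27 symbols that had been turned into dates were restored, and 19 symbols stand on several rows.

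Kept genes had FPKM 1 or more in 2 or more of the 4 libraries. Values were taken as log2(FPKM + 1) and fitted with limma 3.58.1 (R 4.3.3) over all 10 libraries in 5 groups, with an intensity trend. P-values were adjusted by Benjamini and Hochberg over the 13281 genes, and genes under 0.05 were called. Tables and figures were made with Python 3.11.15, and the fit was tested on simulated data. Times higher or lower are ratios of mean FPKM.

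Depth was read from the steps of FPKM in 2192 genes with a lone transcript of at least 1500 nucleotides, taking fragments of 200 nucleotides. Only low values of these genes were scored, 330 to 496 per library, and between 96.03% and 99.39% of them were whole reads within 0.15 read. The depth was chosen to bring these values near whole reads, so this share is not an independent check. Reads were not recovered for all genes, so no count model was run.

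Genes were named by a rule. It took the 15 largest rises and falls at a mean of at least FPKM 10, among called genes whose weeks did not overlap. It also took, in each list, the 3 largest rises and falls among called genes and the 5 highest members. Added to these were 36 key genes and called members against their list where these were 3 or fewer, 369 genes in all. Of 1100 list entries 91 did not reach the filter and 2 were not found. The comparison, the members and the lists were chosen with earlier results of these data known.

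Alternatives were other pseudocounts (0.1 and 5), other filters, a fit of 4 libraries, quantile normalization, a common sum, no trend, a replicate block, a 2-fold requirement and leaving out each library.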

Additional observations from a re-analysis of the deposited data

Results flagged for a closer look

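The step from week 2 to week 3 differed from the step from week 1 to week 2 in 5305 of 13281 genes (limma, Benjamini-Hochberg adjusted p under 0.05), which is a difference between the weeks under the same contrast. Both steps use the week 2 libraries. Without week 2 replicate 1 the number was 3090, and without week 2 replicate 2 it was 3015.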

How the results depend on the processing

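Without 1 library at a time, 7076 to 8418 genes passed the test of week 2 against week 1, and 3015 to 5268 that of the difference between steps, the lowest of these without week 2 replicate 2. A 2-fold requirement left 2994 and 3210 genes. Fits with a replicate block called 8430 and 5200 genes, but same-numbered libraries share only a number: their deviations correlated at 0.011 between weeks 1 and 2. Of the 369 named genes, the block kept 364 on the same side of the threshold, quantile normalization 340, a common sum 340 and leaving out week 2 replicate 2 347. Quantile normalization reversed Cdk4 (0.40), Cox6c (0.081), Cox5b (0.32), Atp5b (0.54) and Slc3a2 (0.030), and a common sum reversed Atp5b (0.28). Of list medians, those of GDNF and FGF targets, macrophages, epithelial genes and the respiratory chain changed sign under quantile normalization (0.03, 0.12, 0.12 and 0.13), and the first and last on a common sum (0.17 and 0.14). The cholesterol median changed sign without week 1 replicate 2 (-0.02) or week 2 replicate 2 (-0.01), and the endothelial one without week 1 replicate 2 (-0.03) or week 2 replicate 1 (-0.40). The cause was not tested. Depth limits the low genes: at FPKM 1, a transcript of 2200 nucleotides had at least 26.9 reads.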

Other observations

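Several of the genes with the largest rises belong to no list used here. Gng13, a G protein subunit known from taste and olfactory cells, was at 3.27 and 2.1 FPKM at week 1 and 11.4 and 16.2 at week 2. Tnni3, the troponin I of heart muscle, was at 5.47 and 1.06 FPKM at week 1 and 12.1 and 14.4 at week 2, and Pxt1, a testis gene, at 3.31 and 1.28 FPKM at week 1 and 9.55 and 11.3 at week 2. In GS cells Gng13 was at 32.9 and 27.5 FPKM, Tnni3 at 18.6 and 16.4 and Pxt1 at 22.5 and 16.5. The rule that picked these 3 genes required that the weeks did not overlap.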
